A study of Caenorhabditis elegans with 2 samples.

Results

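The RNA interference genes of Caenorhabditis elegans were examined for peaks of the zinc finger protein ZFP-3 near their 5′ ends. The genes were taken from a list of 48 symbols that covers RNA-dependent RNA polymerases, Argonautes, Dicer and its cofactors, mutator and siRNA amplification factors, nuclear RNAi factors, P granule proteins and the miRNA Microprocessor. The symbols resolved to 46 genes of the 19973 nuclear protein-coding genes, since rde-3 is the same gene as mut-2 and cde-1 had no entry under that symbol in the annotation used. Binding was measured by chromatin immunoprecipitation and sequencing (ChIP-seq) in whole L4 larvae of the strain RW12271, aged 48 h and synchronized as starved L1 larvae after bleaching. Genome editing had inserted TY1, EGFP and 3xFLAG tags at zfp-3 on chromosome X, and an antibody against GFP recovered the fusion protein. The design has 1 group with 2 biological replicates, with no second genotype, treatment or time and no control data used here, so it asks at which genes the tagged protein was found and whether both replicates show it. Whole animals were used, so a peak does not tell in which cells the protein was bound.

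Short RNAs guide Argonaute proteins to matching transcripts, which are then cut, repressed or silenced at the chromatin. In the worm, Dicer cuts double-stranded RNA into primary siRNAs. RNA-dependent RNA polymerases then copy the targeted transcript into abundant secondary siRNAs, with the help of mutator proteins that gather beside the P granules of germ cells. Nuclear RNAi factors carry the silencing to nascent transcripts, and heritable RNAi and defence against transposons depend on these steps.

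ZFP-3 peaks passed the reproducibility threshold at 2 of the 46 genes, ego-1 and nrde-2, and at none of the 16 Argonautes. Bound means here that the authors' conservative list of 2010 peaks has a summit inside the promoter window of the gene, which runs from 1000 bp before its 5′ end to 200 bp after it. Negative distances are upstream. All of these peaks had a global irreproducible discovery rate (IDR) of at most 0.01, the IDR being the estimated share of peaks of that rank or better that do not repeat. The 2 genes are 4.35% of the 46 (exact binomial 95% interval 0.531 to 14.8%), beside 889 bound genes of all protein-coding genes, or 4.45%. The share among RNA interference genes was therefore near that of all genes. The authors' other thresholded list of both libraries (1458 peaks) held the same 2 genes, beside 3.44% of all genes. By role, the bound genes were 1 of 4 RNA-dependent RNA polymerases, 0 of 16 Argonautes, 0 of 16 Dicer and mutator cofactors and 1 of the 10 other genes. For 16 genes, a count of 0 has an exact 95% upper limit of 20.6%, so the counts by role cannot separate these groups from the background share. The interval covers counting error only, and no test was run over the list.

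ego-1 encodes an RNA-dependent RNA polymerase needed for germline development and for RNAi against germline genes. Its locus (WBGene00001214) lies on the minus strand of chromosome I, from 7650341 to 7656338 in the ce11 build. The conservative list has a peak of 841 bp there (chromosome I, 7656434 to 7657274) with 2 summits. The main summit lay 444 bp upstream of the 5′ end, in intergenic sequence, with a signal of 425 in the authors' units. That summit ranked 16 of the 2010 peaks by signal, and ego-1 ranked 14 of the 889 bound genes. The second summit, at -653 bp and inside the 3′ UTR of the upstream gene F26A3.4, had a signal of 33.2.

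Both libraries gave the ego-1 peak on their own. In the list of replicate 1 (931 peaks) the main summit was again 444 bp upstream, with a signal of 192 and rank 30. In that of replicate 2 (933 peaks) it was at -411 bp, with a signal of 162 and rank 32. The weaker summit returned as well, at -643 bp with a signal of 45.4 in replicate 1 and at -615 bp with 57.6 in replicate 2. Of the 2 summits in the window, each library therefore placed the stronger nearer to ego-1. Outside the window, inside F26A3.4, each library had a further summit. It lay at -1171 bp with a signal of 24.1 in replicate 1. In replicate 2 it lay at -1111 bp with 68.2, above the 57.6 of the summit at -615 bp. Signals are on a separate scale in each list and were not averaged.

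The neighbours of ego-1 bear on how its peak can be assigned. F26A3.4 lies upstream on the same strand with 639 bp between the genes, and its own 5′ end is 1509 bp from the main summit. A separate summit of the conservative list, with a signal of 77.4, lay 53 bp upstream of the 5′ end of F26A3.4, and a weaker one, with 18.9, lay at -255 bp from that end. The piRNA gene 21ur-14981 also has the ego-1 summits in its window. Downstream, rrf-1 starts 563 bp beyond the 3′ end of ego-1 on the same strand, and its 5′ end is 7005 bp from the main ego-1 summit. No thresholded list placed a summit in the window of rrf-1.

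**Figure D1:**
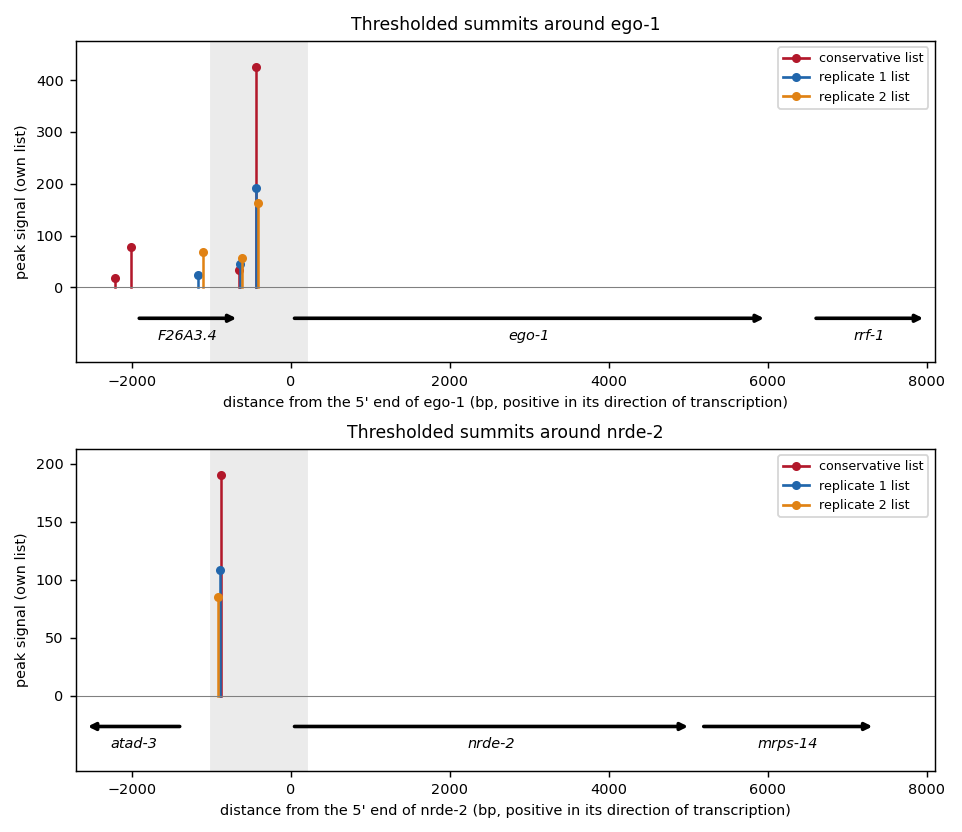
Summits of the thresholded lists around ego-1 (top) and nrde-2 (bottom), plotted by distance from each gene's 5′ end in bp, with the signal in each list's own units on the vertical axis, genes as arrows and the promoter window shaded. The main ego-1 summits sit at -444, -444 and -411 bp, and the nrde-2 summits at -875, -893 and -913 bp, near the outer edge of the window.

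nrde-2 encodes a nuclear RNAi factor that, guided by siRNAs, acts on nascent transcripts. The locus (WBGene00011333) is on the minus strand of chromosome II, from 10242596 to 10247638. Its conservative peak (chromosome II, 10248345 to 10248680, 336 bp) had a summit 875 bp upstream of the 5′ end in intergenic sequence, with a signal of 190. It ranked 157 of 2010 peaks, and nrde-2 ranked 106 of the 889 bound genes. Replicate 1 gave a signal of 108 at -893 bp (rank 128 of 931), and replicate 2 gave 85.0 at -913 bp (rank 187 of 933). The site was thus present in each library, at a lower rank than ego-1 in every list. The divergent gene atad-3, which encodes a mitochondrial ATPase, shares the summit: 1352 bp separate the genes, and the summit is 478 bp upstream of atad-3, nearer to it than to nrde-2. The peak could be assigned to either gene. nrde-2 was not bound with a window of 500 bp upstream to 100 bp downstream, nor where each summit counted for the nearest 5′ end only. Each of these rules left 1 of the 46 genes, beside 3.25% of all genes with the narrower window and 3.45% with the nearest end.

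The sequence under the nrde-2 summit holds a short tandem repeat. The 299 bp centred on the summit of the conservative list are shown because the repeat lies at that summit. The sequence is chrII:10248364-10248662 on the minus strand, the strand of nrde-2, from the RefSeq WBcel235 assembly (ce11), and capitals mark each copy of the repeated 8-mer.
nrde-2: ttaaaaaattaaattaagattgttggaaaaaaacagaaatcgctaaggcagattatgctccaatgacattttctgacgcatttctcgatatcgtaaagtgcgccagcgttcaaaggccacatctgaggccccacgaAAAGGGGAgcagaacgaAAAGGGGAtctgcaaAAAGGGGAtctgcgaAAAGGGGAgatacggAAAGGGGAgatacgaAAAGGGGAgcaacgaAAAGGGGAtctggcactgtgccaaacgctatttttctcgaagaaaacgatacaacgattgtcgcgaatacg
The 8-mer AAAGGGGA occurs 7 times, all on this strand, with 15 to 17 bp from one start to the next. The first copy starts 13 bp before the summit on this strand and the copies span 100 bp in the direction of nrde-2. The summits of replicate 1 (-893 bp) and replicate 2 (-913 bp) lie upstream of the first copy, outside the repeat. The peaks of both libraries cover the repeat. The comparison set was 716 other conservative summits in protein-coding promoter windows, all over 100 bp from any tRNA gene. Of these, 18 (2.51%) had any 8-mer at least 7 times in the same width, and the median was 2 copies. AAAGGGGA on either strand lay in 16 (2.23%) of those summit regions, and 9 of the 716 had at least 3 copies. Among promoter windows of 1201 bp, it was found at nrde-2 alone of the 46 genes, and at 675 of all protein-coding genes (3.38%), with at least 3 copies at 27 (0.135%). These windows are wider than the 299 bp at the summits, so the 2 sets of shares are not like for like. The repeat was chosen after its copies were seen, and these counts describe sequence and not a binding site. Around the main ego-1 summit no 8-mer occurred more than 2 times.

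The other RNA-dependent RNA polymerase genes had no peak past the threshold in any list. Below it, the authors' ranked list of the series held 106942 peaks, most with a high IDR, and covered 33.3% of the nuclear genome. rrf-2 had a signal of 45.0 at -42 bp with an IDR of 0.0706 in that list. It had 21.3 in the ranked list of replicate 2 and no peak in that of replicate 1. rrf-1, which makes secondary siRNAs in the soma, had a signal of 37.5 at -462 bp with an IDR of 0.816, with 20.7 at -251 bp in replicate 1 and 12.6 at -462 bp in replicate 2. rrf-3, which acts in the ERI complex that makes endogenous siRNAs, had no ranked peak in its window in any list. Within the series list, the signal at ego-1 was the highest of the 4 genes by a wide margin, and only ego-1 passed the IDR threshold.

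Of the 16 Argonautes, the proteins that carry the guide RNAs, 12 had a peak in the window in the series ranked list, which has such a peak at 70.9% of all protein-coding genes, a share near that of the Argonautes. Their median top signal was 18.1 and the range 7.29 to 46.2, beside a median of 27.2 over all genes with a ranked peak. The highest was wago-4, whose product acts in inherited silencing, with 46.2 at 71 bp downstream of the 5′ end and an IDR of 0.816. ppw-1, an Argonaute of germline RNAi, had 45.9 at -384 bp with an IDR of 0.285. In replicate 1, ppw-1 had 21.4 at -377 bp, while wago-4 had 24.1 at -937 bp, which is another site than that of the series list. Neither had a ranked peak in replicate 2. sago-2 followed with 34.1, nrde-3, the nuclear Argonaute of the soma, with 29.7, and alg-2, one of the miRNA Argonautes, with 26.6. The remaining Argonautes with a peak were ergo-1, hrde-1, csr-1, wago-1, sago-1, prg-1 and alg-1, at 20.3 or below. rde-1, alg-3, alg-4 and ppw-2 had no ranked peak in the window.

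In replicate 1, 6 of the Argonautes had a ranked peak, and in replicate 2 it was nrde-3 alone, with 16.4 in replicate 1 and 19.6 in replicate 2. Of all protein-coding genes, 39.6% had a ranked peak in replicate 1 and 40.7% in replicate 2. No test was run on these counts. No Argonaute passed the threshold in either library alone, where 2.49% of all genes did in replicate 1 and 2.30% in replicate 2.

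The Dicer and mutator cofactors had ranked peaks at 15 of 16 genes in the series list, beside 70.9% of all genes. Their median top signal was 35.4, beside 27.2 over all genes with a ranked peak. Among the 6 genes of Dicer and its double-stranded RNA cofactors, the highest was eri-1, which encodes an exonuclease that restrains RNAi. In the series list eri-1 had a signal of 48.7 at 116 bp downstream of the 5′ end and an IDR of 0.0312. Its signal was 25.1 in replicate 1 and 29.7 in replicate 2. In the authors' other ranked list of both libraries the IDR of the same peak was 0.483. dcr-1, the Dicer gene, had 37.9 (IDR 0.280), with 25.3 in replicate 1 and a lower ranked peak in replicate 2. ekl-1, whose Tudor domain protein works with the RNA-dependent RNA polymerases, had 36.2, and the helicase genes drh-3 and drh-1 had 28.5 and 28.4. rde-4, whose double-stranded RNA binding protein partners Dicer, had 24.1. All 6 genes lay between 24.1 and 48.7, and none passed the threshold in any list.

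Among the mutator and amplification genes, mut-2 was the only one past the threshold, and in 1 library. mut-2 encodes a nucleotidyltransferase that extends RNAs targeted by RNAi. In replicate 2 its summit lay at -282 bp with a signal of 43.1, an IDR of 0.00744 and rank 779 of 933. Replicate 1 had no ranked peak there, and the series list gave 47.3 with an IDR of 0.664. The summit falls in coding sequence of the divergent neighbour K04F10.3, 108 bp downstream of that gene's 5′ end. With it, 3 of the 46 genes (6.52%) were bound in the list of replicate 2, beside 2.30% of all genes; replicate 1 alone had 2 (4.35%), beside 2.49%.

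Higher signals without a passing IDR were found at rde-12 and mut-15. rde-12, a DEAD-box helicase gene, had 59.2 at -680 bp in the series list, with an IDR of 0.486. In the authors' other ranked list of both libraries the IDR of that peak was 0.0370. Replicate 1 had 24.4 at -846 bp, and replicate 2 had 35.3 at -680 bp with an IDR of 0.0553. mut-15 had 53.6 at -269 bp (IDR 0.0597), with 21.3 in replicate 1 and 46.3 in replicate 2. The mut-15 summit lies between divergent genes, with fib-1 319 bp from mut-15 on the other strand, so the window of mut-15 extends into fib-1. The summit is nearer to the 5′ end of fib-1 than to that of mut-15, and the peak could be assigned to either gene. rde-2 had 41.9, mut-16, which encodes the scaffold of the mutator foci, had 35.4, and the exonuclease gene mut-7 had 26.3. rde-8, the helicase gene mut-14 and rde-11 lay between 8.22 and 11.4, and rde-10 had a ranked peak in replicate 2 alone, with 19.9. Of all protein-coding genes, 5.72% had a higher top signal than rde-12 in the series list and 7.41% a higher one than mut-15, against 0.526% for nrde-2 and 0.0651% for ego-1.

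The remaining genes stayed below the threshold. nrde-1 and nrde-4, which act with nrde-2 in the nucleus, had 38.8 and 20.3. Of the P granule genes, glh-1, which encodes a Vasa-like helicase, had 39.6 (IDR 0.148), while pgl-3 had 26.9 and pgl-1 had 17.0. drsh-1, the Drosha gene of the Microprocessor, had 40.8, with 15.9 in replicate 1 and 15.6 in replicate 2, and its partner pash-1 had no ranked peak. henn-1, which encodes the methyltransferase of small RNA 3′ ends, had 22.3, and the nucleotidyltransferase gene cid-1 had 16.9.

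**Figure D2:**
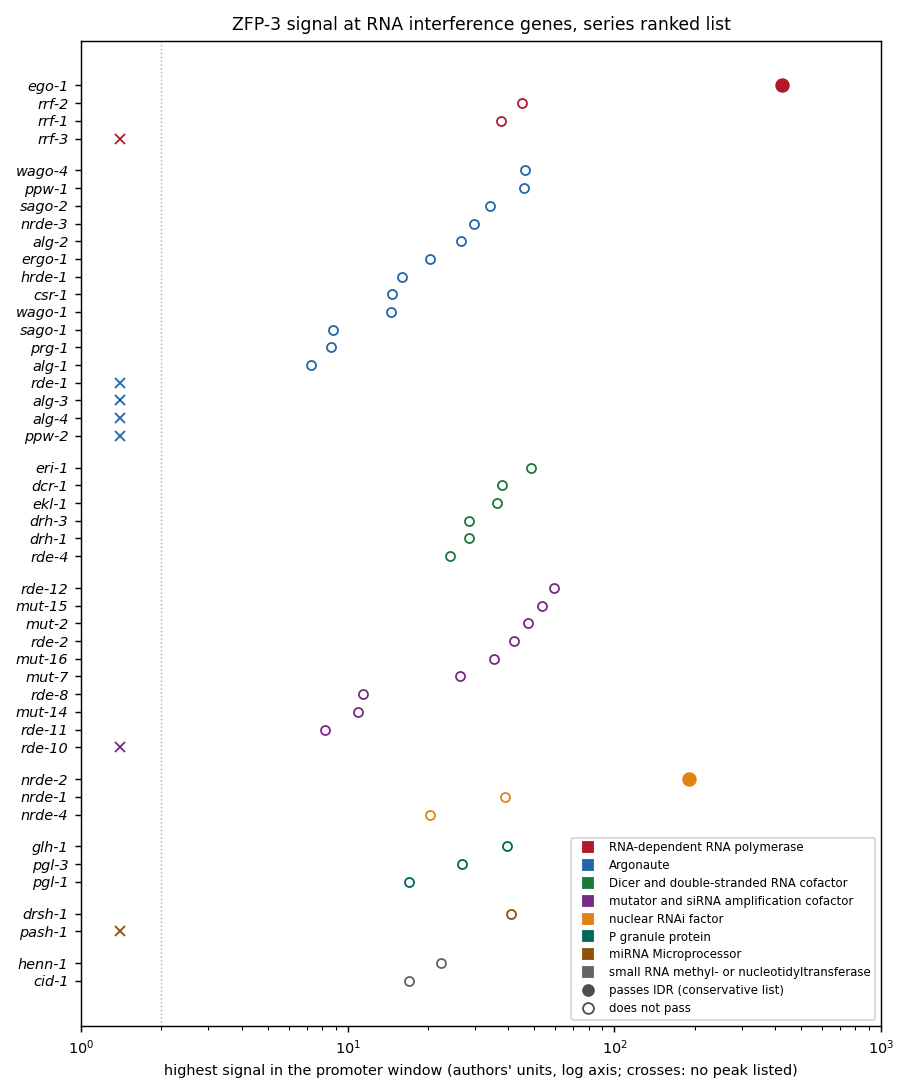
Highest signal in the promoter window for each of the 46 genes in the series ranked list, on a log axis and grouped by role, with filled points for genes that pass the IDR threshold and crosses for genes with no ranked peak. ego-1 at 425 and nrde-2 at 190 stand to the right of every other gene, of which the highest is rde-12 at 59.2.

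Taken without a threshold, the ranked list reached 39 of the 46 genes (84.8%, exact 95% interval 71.1 to 93.7%), beside 70.9% of all protein-coding genes. The median top signal of genes with a peak was 28.5 for the RNA interference genes and 27.2 for all genes. In replicate 1 it was 21.3 for the RNA interference genes and 20.7 for all genes, and in replicate 2 it was 20.0 for the RNA interference genes and 18.8 for all genes. The ranked list of the authors' other series list reached 27 (58.7%), beside 41.9% of all genes. Replicate 1 reached 25 (54.3%), beside 39.6%, and replicate 2 reached 20 (43.5%), beside 40.7%. At an IDR of at most 0.05, 3 genes were reached (6.52%), beside 7.56% of all genes, with eri-1 as the addition. At an IDR of at most 0.1, 5 were reached (10.9%), beside 9.96%, with mut-15 and rrf-2 added. Which genes were added depended on the list. In the authors' other ranked list of both libraries, the IDR was 0.483 at eri-1, 0.369 at mut-15 and 0.680 at rrf-2. There rde-12 had 0.0370. The looser IDR limits were chosen after values were seen. The shares of RNA interference genes and all genes lay close together at each IDR limit, and they were further apart only where every ranked peak was counted.

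**Figure D3:**
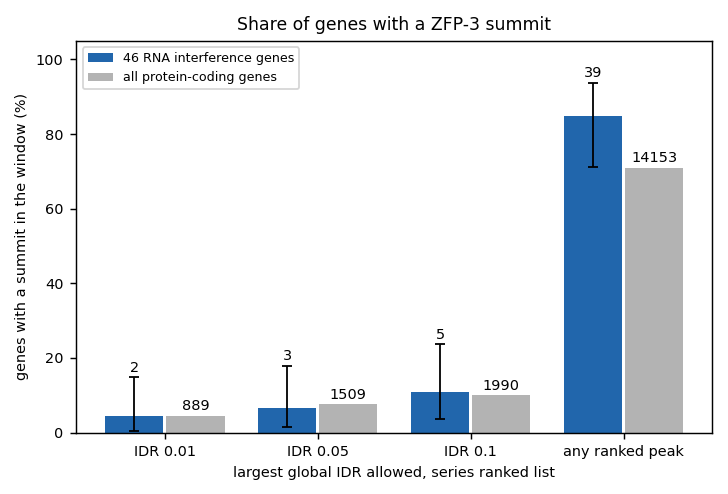
Percentage of the 46 RNA interference genes (left bars) and of all 19973 protein-coding genes (right bars) with a summit in the window at each IDR limit of the series ranked list, with counts above the bars and exact binomial 95% intervals on the RNA interference genes. The first pair is 4.35 and 4.45%, and the last pair, with any ranked peak, is 84.8 and 70.9%.

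In the ranked lists of both replicates, 15 of the 46 genes had a peak in the window (32.6%), beside 24.3% of all genes. ego-1 and nrde-2 had the highest signal of the 15 in each replicate. They were followed by glh-1 (26.5) and dcr-1 (25.3) in replicate 1, and by mut-15 (46.3) and rde-12 (35.3) in replicate 2. Below nrde-2, the order of the genes therefore differed between the libraries, and their signals overlapped those of many other genes.

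**Figure D4:**
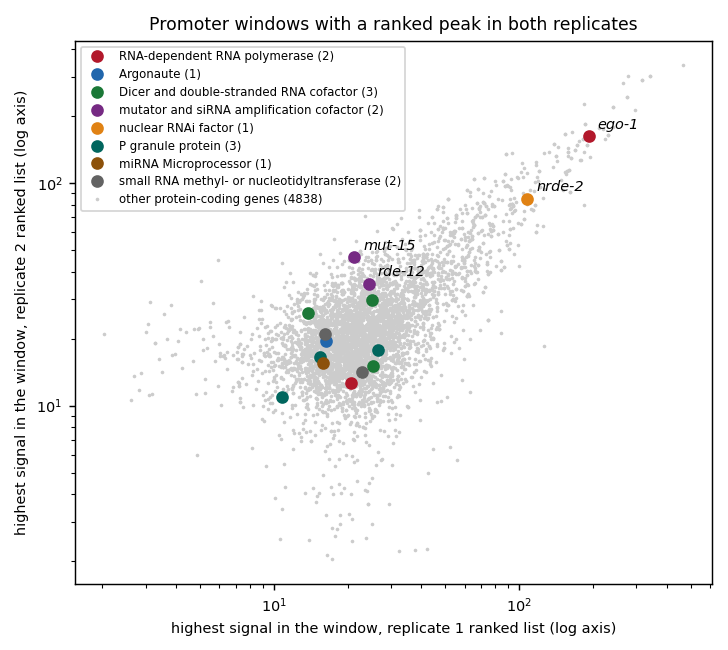
Highest signal in the window in the ranked list of replicate 1 (horizontal, log axis) against that of replicate 2 (vertical, log axis) for genes with a ranked peak in both, with the 15 RNA interference genes coloured by role and other genes in grey. ego-1 (192 and 162) and nrde-2 (108 and 85.0) lie in the upper right, and the others lie in the main cloud.

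Beyond the promoter window, conservative summits were found near several other genes of the pathway. The nearest summit to cid-1 was 1272 bp upstream with a signal of 141, just outside the window. drsh-1 had one 2967 bp upstream with a signal of 226. Inside genes, ekl-1 had a summit in its own 3′ UTR, 2815 bp downstream of its 5′ end, and mut-16 had one with a signal of 71.5 in its own coding sequence, 4330 bp downstream. These 2 genes are 4.35% of the 46, beside 3.79% of all genes with a summit between the 5′ and 3′ ends. The distance from the 5′ end to the nearest conservative summit had a median of 17966 bp for the 46 genes (quartiles 6836 and 36711 bp), and of 26356 bp for all genes (quartiles 9258 and 57962 bp). Within 10000 bp, 39.1% of the RNA interference genes and 26.3% of all genes had a summit. Within 2000 bp the shares were 6.52% of the RNA interference genes and 8.72% of all genes. Chromosome I, where 5.63% of all genes were bound, holds 17 of the 46 genes, and the part of this in the distances was not tested.

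**Figure D5:**
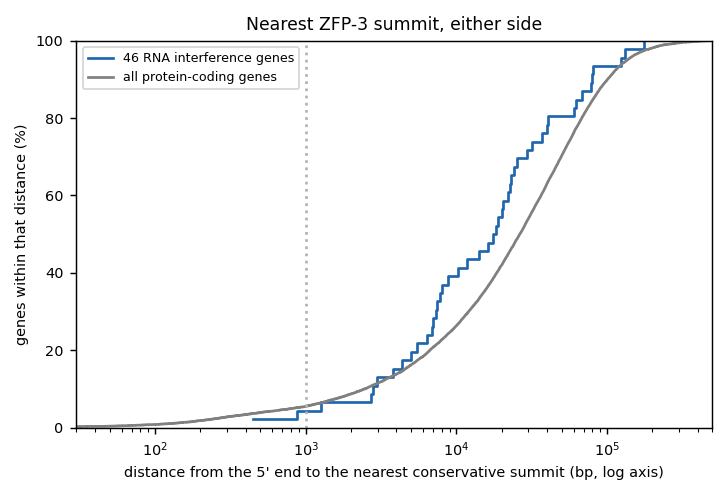
Cumulative percentage of genes whose 5′ end lies within a given distance (bp, log axis) of a summit of the conservative list, for the 46 RNA interference genes and all protein-coding genes, with a dotted line at 1000 bp. The curves are close together up to 2000 bp, and the RNA interference genes are ahead at 10000 bp (39.1 and 26.3%).

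The 6-mers found most often above their flanks at ZFP-3 promoter summits away from tRNA genes were absent from the summits at ego-1 and nrde-2. Each was searched on both strands within 50 bp of a summit, and a region counted once however many matches it held. Over 716 other conservative summits in promoter windows, ACGCGC lay at 12.4% of summits and 0.559% of flanks. CGCGCA lay at 74 of those summits, GCGCGC at 7.12%, CCGCGC at 6.84% and TGCGCA at 5.31%. The 5 overlap each other in letters, and at least 1 of them lay at 185 (25.8%) of those summits. None lay at the 3 conservative summits of ego-1 and nrde-2, which says only that these letters are not in those windows. The GC content within 50 bp was 36.6% at the main ego-1 summit, 31.7% at its second summit and 55.4% at nrde-2, beside a median of 45.5% at the other summits. In the whole 1201-bp promoter windows, ACGCGC was in 17.4% of the RNA interference genes and 15.8% of all genes, and CGCGCA in 17.4% of the RNA interference genes and 17.1% of all genes. GCGCGC was in 17.4% of the RNA interference genes and 9.09% of all genes. TGCGCA was in 8.70% of the RNA interference genes and 11.1% of all genes, and CCGCGC in 8.70% of the RNA interference genes and 13.7% of all genes. Of these windows, the 1 at ego-1 held GCGCGC and the 1 at nrde-2 held CGCGCA and CCGCGC, away from the summits.

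A wider list of 69 further small RNA pathway genes, covering other Argonautes, systemic RNAi, ERI and piRNA factors, germ granule proteins, miRNA silencing and chromatin factors, had 6 bound genes (8.70%), beside 4.45% of all genes. nhl-2, which encodes a TRIM-NHL cofactor of miRNA silencing, had a signal of 266 at -828 bp, with 156 in replicate 1 and 113 in replicate 2. Its summit is shared with the divergent gene tag-340 and lies in an exon of the noncoding RNA gene F26F4.14. vig-1, a gene of the RNA-induced silencing complex, had 258 at -407 bp, with 143 in replicate 1 and 125 in replicate 2. That summit is intergenic and also lies in the window of the piRNA gene 21ur-13751. The other 4 were weaker. simr-1, whose product acts in the siRNA pathway downstream of piRNAs, had 129 at -495 bp, a summit shared with the divergent gene C06A5.3. eri-5, which encodes a Tudor domain partner of Dicer and RRF-3, had 113 at -309 bp. tofu-1, a piRNA biogenesis gene, had 107 at -278 bp, a summit shared with the divergent gene ruvb-1. ain-1, a GW182-family gene of miRNA silencing, had 85.8 at -903 bp.

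Where each summit counted for the nearest 5′ end only, 3 of the wider list were bound (4.35%), beside 3.45% of all genes. These were ain-1, eri-5 and vig-1. The summits at nhl-2, simr-1 and tofu-1 are nearer to the 5′ ends of the divergent genes. They lie at -595 bp from tag-340, -122 bp from C06A5.3 and -67 bp from ruvb-1, so each could be assigned to either gene. Of the 6, nhl-2, vig-1 and ain-1 passed the threshold in each library alone. In replicate 2, however, ain-1 had a signal of 28.4 and ranked 870 of 933. It was also the only 1 of the 6 absent from the authors' other thresholded list of both libraries. That list held 5 of the wider list (7.25%), beside 3.44% of all genes. simr-1 (74.1) and eri-5 (66.3) passed in replicate 1 and not in replicate 2, where their signals were 43.5 and 35.5. tofu-1 passed in replicate 2 with 70.0 and not in replicate 1, where it had 44.1. Signals at nhl-2 and vig-1 lay between those at ego-1 and nrde-2 in the conservative list and in both replicates.

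The summit regions of vig-1 and nhl-2 share a run of 12 identical bases on the same strand relative to each gene, the longest among the pairs of nrde-2, eri-5, tofu-1, vig-1, nhl-2 and ain-1. The sequence to 50 bp on each side of the summit is shown for that reason, from the RefSeq WBcel235 assembly, with the shared run in capitals. The vig-1 region is chrII:1320580-1320680 on the plus strand and the nhl-2 region is chrIII:4899863-4899963 on the minus strand.
vig-1: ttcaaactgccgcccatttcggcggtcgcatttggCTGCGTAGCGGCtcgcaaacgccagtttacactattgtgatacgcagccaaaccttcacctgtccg
nhl-2: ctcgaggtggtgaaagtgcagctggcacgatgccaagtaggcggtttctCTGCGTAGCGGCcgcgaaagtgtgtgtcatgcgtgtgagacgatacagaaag
The run CTGCGTAGCGGC, searched on both strands, was in 2 of the 2010 conservative summit regions (0.0995%) and in the promoter windows of 3 protein-coding genes of 19973 (0.0150%). The 2 summit regions are those of vig-1 and nhl-2 themselves, and the 3 promoter windows include those of both genes. The nhl-2 copy also lies in the window of the divergent gene tag-340, since the shared summit is at -595 bp from that gene. The 3 windows are therefore not 3 separate copies of the run. These counts therefore hold the pair that gave the run. The run was picked after the sequences were compared and is given as a description.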

How the data were processed

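Per the labels, ChIP-seq was run on 2 biological replicates with sonicated fragments of 200 to 800 bp. Per the file headers and deposited notes, peak lists were made on the ce11 build for each library and for both, and were ranked by IDR. No aligner or peak caller is named in the sources used here. The signal of a peak was deposited by the authors on a scale that is not given, and no signal was compared across lists. The score is the authors' deposited scaled IDR, and thresholded lists hold scores of at least 830. The −log10 global IDR of the ranked lists was deposited by the authors and was converted to IDR here. Read depth is unknown.

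Genes and 5′ ends came from Ensembl release 115 (WBcel235) and sequences from RefSeq. Windows, counts, exact binomial intervals and k-mers were computed with Python 3.11.15 and SciPy 1.17.1, and figures with matplotlib 3.10.9. The window and k-mer steps were tested on simulated data. The genes, lists and rules were chosen with earlier results of these data known. Bound genes, genes past the threshold in any list and the highest of each role were named, and the others were listed by role. Alternatives were other lists, the 1005 strongest peaks, other windows and other gene assignments. Of the 76 symbols of the wider list, 69 had an entry.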

Additional observations from a re-analysis of the deposited data

How the results depend on the processing

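ego-1 was bound under every alternative run, and no Argonaute was bound under any. Some alternatives could not have dropped ego-1. Its summit ranked 16 of 2010 and so is among the 1005 strongest peaks, and a wider window can only add genes. Against 2 bound genes of the 46, a window of 500 bp upstream to 100 bp downstream left 1, beside 649 (3.25%) of all genes, and giving each summit only to the nearest 5′ end left 1, beside 689 (3.45%). In both cases nrde-2 was lost and the 10 other genes had 0 bound, whereas a window of 2000 bp upstream to 500 bp downstream gave 2 of those 10, with cid-1 added, beside 1299 of all 19973 genes. By single library the bound genes ranged from 2 to 3 of the 46 and the Dicer and mutator cofactors from 0 to 1, the addition being mut-2 in replicate 2. All protein-coding genes bound ranged from 459 to 497 by single library, against 889, and the 1005 strongest peaks gave 565. These shorter lists hold fewer peaks. The wider list had 3 bound genes (4.35%) in place of 6 when each summit went only to the nearest 5′ end. With 25 or 100 bp to each side, the 6-mers were still absent from the ego-1 and nrde-2 summits. No paired analysis was possible because there is 1 group and no test between groups. With no depth or control data, a gene without a peak cannot be called unbound.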
